A study of Zea mays with 6 samples.

Results

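The maize genes d1, d3, d8 and d9, named for the dwarf plants their mutations give, were followed in seedlings of the Fdl1-/- mutant and in wild type. They were taken by their gene IDs in the B73 RefGen_v4 annotation: d1 (a GA 3-oxidase) is Zm00001d039634, d3 (a cytochrome P450) is Zm00001d045563, and the DELLA genes d8 and d9 are Zm00001d033680 and Zm00001d013465. All 4 IDs were present among the 45855 genes of the deposited tables, and all 4 passed the filter on low counts. The pairing of these IDs with the locus names comes from the list of members and is not held by the table of gene symbols used here. The study sequenced polyadenylated RNA of whole seedlings of maize (Zea mays) at the coleoptile stage, in 3 biological replicates labelled wild type and 3 labelled Fdl1-/-. No treatment is given for either group, and the labels give neither the lesion of the Fdl1 allele nor the inbred background of the plants. The gene mutated, FDL1 (fused leaves1), is a MYB regulator of the cuticle, and leaves of young mutant seedlings are known to stick together.

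Gibberellins are plant hormones that promote stem and leaf elongation. They are made from a diterpene by a chain of cyclases, cytochrome P450 enzymes and dioxygenases, and the late GA 3-oxidase step gives the bioactive forms. DELLA proteins are nuclear repressors of growth, and bioactive gibberellin, bound to its receptor, sends them to degradation. Loss of d1 or d3 gives maize dwarfs that gibberellin restores, while the classical dwarf alleles of d8 and d9 are dominant and do not respond to the hormone. In Arabidopsis, the transcript of the GA 3-oxidase gene GA3ox1 falls when gibberellin is supplied.

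Library totals ran from 26807205 to 36123679 expected counts. Wild-type replicate 1 stood apart from the other libraries, with a mean correlation of 0.944 across genes with the other wild-type libraries. The same mean was 0.962 and 0.956 for wild-type replicates 2 and 3, which includes their correlation with replicate 1, and 0.974 to 0.977 for the mutant libraries. In 14.5% of the 26098 tested genes the level in wild-type replicate 1 was at least 2 times the mean of the rest of its group, against 0.947% to 4.45% in the other libraries. Fold changes and the main ratios below are therefore given with and without it. The FDL1 locus itself, Zm00001d022227 by an ID recalled and not paired by any table used here, had 3.35 to 4.84 TPM in wild type and 3.40 to 3.99 TPM in Fdl1-/-. By edgeR's quasi-likelihood test the locus had an adjusted p of 0.651 at a log2 fold change of -0.28 (SE 0.23), and its level does not check the genotype labels. Markers of the seedling tissue could not be looked up by ID, and the tissue label was not checked.

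Of the 4 genes, d1 alone had lower levels in every Fdl1-/- library than in any wild-type library, about 2.7-fold lower in the fit, yet it narrowly missed the threshold. Levels that did not overlap between the groups were thus found for 1 of the 4 genes, against 21.9% of all tested genes, and 11.2% with the mutant lower. The other synthesis gene, d3, and both DELLA genes had overlapping levels in the 2 genotypes. By edgeR's quasi-likelihood test with an adjusted p under 0.05 over all tested genes, 0 of the 4 passed, against 2.68% of all tested genes, 0.996% lower and 1.68% higher in the mutant. At an unadjusted p under 0.05 there was 1 of the 4, d1, against 15.8% of all tested genes. DESeq2 called 1 of the 4, again d1, where it called 7.67% of the genes it tested and 3.58% as lower, and limma-voom called 0, against 2.76% of all tested genes. All 4 fitted log2 fold changes were below 0, as were 54.8% of those of all tested genes, and for d3, d8 and d9 the sign rested on wild-type replicate 1. In whole seedlings, fewer cells that express a gene and less RNA per cell cannot be told apart.

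**Figure D1:**
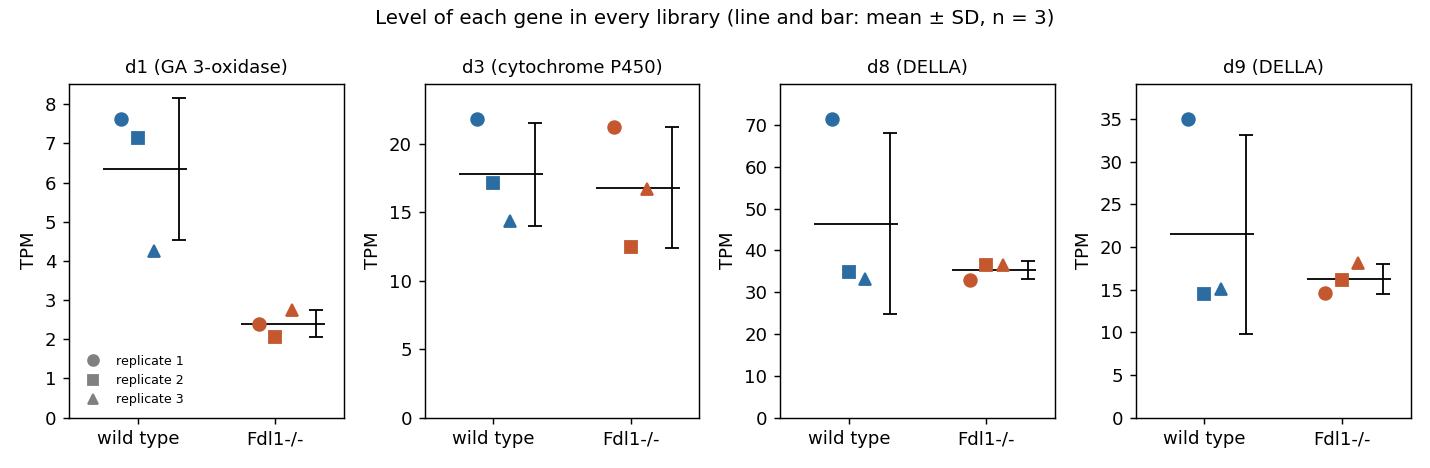
Level in TPM (a transcript abundance corrected for length and library total) of d1, d3, d8 and d9 in each library, with 3 wild-type and 3 Fdl1-/- libraries, symbols by replicate, and the mean ± SD drawn to the right of the points. The d1 points of the groups do not overlap, and for d8 and d9 wild-type replicate 1 lies at 71.35 and 34.94 TPM, well above the other libraries.

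The levels of the 4 genes kept a partly fixed order. Per length, d8 had the highest TPM of the 4 in 6 of 6 libraries and d1 the lowest in 6 of 6. The DELLA gene d9 lay above the P450 gene d3 in 4 libraries and below it in 2, so these neighbours in the order were not separated beyond their spread. In wild type the mean levels were 46.4 ± 21.6 TPM for d8, 21.5 ± 11.7 TPM for d9, 17.8 ± 3.75 TPM for d3 and 6.33 ± 1.81 TPM for d1 (SD, n = 3). In Fdl1-/- they were 35.3 ± 2.09, 16.3 ± 1.78, 16.8 ± 4.40 and 2.40 ± 0.340 TPM in the same order (SD, n = 3). Without wild-type replicate 1 the wild-type means were 33.9 TPM for d8, 14.8 TPM for d9, 15.8 TPM for d3 and 5.695 TPM for d1, so d3 then stood above d9. Among genes with a TPM above 0 in a library, d8 stood at the 81.4th to 92.3rd percentile and d1 at the 36.3rd to 53.7th.

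The first of the synthesis genes in the pathway is d3. It encodes a P450 of the CYP88A family, and enzymes of this family in Arabidopsis and barley oxidise ent-kaurenoic acid, a step that comes before the dioxygenases. Its level was 21.79, 17.18 and 14.37 TPM in wild-type replicates 1, 2 and 3, and 21.25, 12.45 and 16.71 TPM in Fdl1-/- replicates 1, 2 and 3. The groups overlapped over most of their range, with the highest wild-type and the highest mutant library almost level. In edgeR d3 had an adjusted p of 0.792, at a log2 fold change of -0.26 (SE 0.31, 95% interval -0.99 to 0.48). Without wild-type replicate 1 it was 0.12, with an adjusted p of 0.837 in the same test. The interval still allows d3 to be up to 1.99-fold lower or 1.39-fold higher in the mutant.

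The P450 gene was also the 1 member with more than 1 annotated transcript, namely 2. Its mean transcript length, which RSEM weights by the estimated share of each transcript, was 1235, 968 and 1030 nt in wild-type replicates 1, 2 and 3. In Fdl1-/- replicates 1, 2 and 3 it was 998, 1028 and 1016 nt. The mutant libraries lay inside the wild-type range, and wild-type replicate 1 alone was far above the rest. Wild type averaged 1078 ± 140 nt and the mutant 1014 ± 14.9 nt (SD, n = 3), a difference with a two-sided exact permutation p of 0.7. Without wild-type replicate 1 the mutant mean was higher by 15.05 nt. With effective lengths as offsets in the edgeR fit, the log2 fold change of d3 was -0.14.

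The late synthesis gene is d1, the GA 3-oxidase that gives bioactive gibberellin in maize. Wild-type replicates 1, 2 and 3 had 7.61, 7.13 and 4.26 TPM, from 300, 351 and 189 reads. Fdl1-/- replicates 1, 2 and 3 had 2.40, 2.06 and 2.74 TPM, from 95, 102 and 127 reads. Every mutant library was below every wild-type library, and wild-type replicate 3 was the nearest to the mutants. In CPM, the count scaled to library size, wild type had 9.02 ± 2.98 and the mutant 3.29 ± 0.434 (SD, n = 3).

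For d1 the fitted log2 fold change was -1.45 (SE 0.30, 95% interval -2.15 to -0.75), which is 2.73-fold lower in the mutant with an interval of 1.68-fold to 4.44-fold. Its p was 0.00168 before and 0.0547 after adjustment over 26098 genes in edgeR's quasi-likelihood test, so it stood just outside the threshold of 0.05. By p it ranked 803rd, where 699 genes passed, and 1.77% of tested genes had a lower log2 fold change. DESeq2 gave d1 an adjusted p of 0.000535. Over the 15 alternatives the adjusted p ran from 0.000535 to 0.208, and 3 passed: DESeq2, no filter on low counts (0.0493) and the fit without wild-type replicate 3 (0.0217). Without wild-type replicate 1 the log2 fold change of d1 was -1.25, with an adjusted p of 0.0787 in edgeR.

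**Figure D2:**
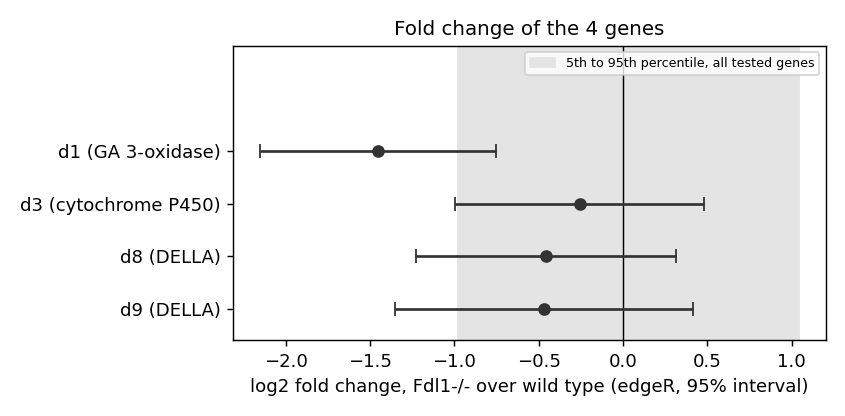
Fitted log2 fold change, Fdl1-/- over wild type, of the 4 genes with 95% intervals from edgeR, with the grey band marking the 5th to 95th percentile of all tested genes, -0.98 to 1.04. The point for d1 at -1.45 lies left of the band and its interval stays below 0, while the intervals of d3, d8 and d9 cross 0.

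The spread of d1 between wild-type replicates was wider than its counting error, and in the mutant it was close to it. Counting error alone was 5.34% to 7.27% of the level of d1 in the wild-type libraries, against a standard deviation of 33.0% of the mean between them. In the Fdl1-/- libraries counting error was 8.87% to 10.3% and the standard deviation 13.2%. For the nearest pair of libraries, wild-type replicate 3 had 5.69 CPM with an exact Poisson 95% interval of 4.91 to 6.56, and Fdl1-/- replicate 3 had 3.72 CPM with 3.10 to 4.43. These intervals cover counting error only, and they do not meet. All 6 expected counts of d1 were whole within 0.005, as for 31.7% of tested genes. For d3 they were whole in 3 libraries, and in d8 and d9 none were.

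Set against d3 in the same library, d1 was also lower in the mutant. The ratio reuses the d1 levels given above and is not independent of them. The TPM of d1 was 34.9%, 41.5% and 29.6% of that of d3 in wild-type replicates 1, 2 and 3. In Fdl1-/- replicates 1, 2 and 3 it was 11.3%, 16.5% and 16.4%. The highest mutant ratio was well under the lowest wild-type ratio. As a log2 ratio of d1 to d3, wild type had -1.51 ± 0.243 and the mutant -2.78 ± 0.314 (SD, n = 3), a difference of -1.27. Its two-sided exact permutation p was 0.1, the smallest that 3 against 3 libraries allow. Such a ratio does not depend on library scaling, and the difference was -1.27 also without wild-type replicate 1. In TPM it does depend on the estimated length of d3. In TPM and in counts it also depends on how shared reads of d3 were divided. The expected counts of d3 were not whole in wild-type replicate 1 and Fdl1-/- replicates 1 and 2. As a ratio of expected counts the difference was -1.19, with a two-sided exact permutation p of 0.1.

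**Figure D3:**
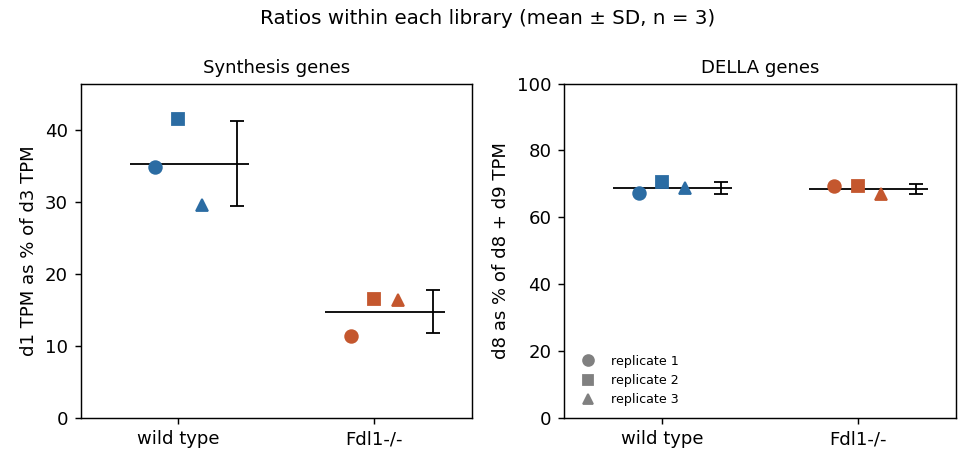
Left, d1 TPM as a percent of d3 TPM, and right, d8 as a percent of the summed TPM of d8 and d9, in each of 3 wild-type and 3 Fdl1-/- libraries with the mean ± SD to the right of the points. The left ratio is 29.6% to 41.5% in wild-type and 11.3% to 16.5% in mutant libraries, while the right one is 66.9% to 70.6% in all libraries.

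The DELLA genes d8 and d9 encode closely related repressors of the gibberellin response. For d8 the level was 71.35, 34.73 and 33.13 TPM in wild-type replicates 1, 2 and 3, and 32.92, 36.47 and 36.59 TPM in Fdl1-/- replicates 1, 2 and 3. For d9 it was 34.94, 14.44 and 15.08 TPM in wild-type replicates 1, 2 and 3, and 14.60, 16.08 and 18.14 TPM in the mutant ones. In both genes wild-type replicate 1 was high and the other 5 libraries were close together.

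In edgeR d8 had an adjusted p of 0.598, at a log2 fold change of -0.46 (SE 0.33, 95% interval -1.22 to 0.31). For d9 the adjusted p in edgeR was 0.652, at a log2 fold change of -0.47 (SE 0.38, 95% interval -1.35 to 0.42). Without wild-type replicate 1 these values turned to 0.064 (SE 0.097) for d8 and 0.15 (SE 0.12) for d9, with adjusted p of 0.781 and 0.574 in edgeR. The direction for both DELLA genes was therefore set by 1 library. In that library d8 was 2.31 times and d9 2.60 times the mean of the other wild-type libraries in CPM, and 11.3% and 9.03% of tested genes had a higher ratio there. Of the synthesis genes d3 was 1.90 times and d1 1.46 times that mean.

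**Figure D4:**
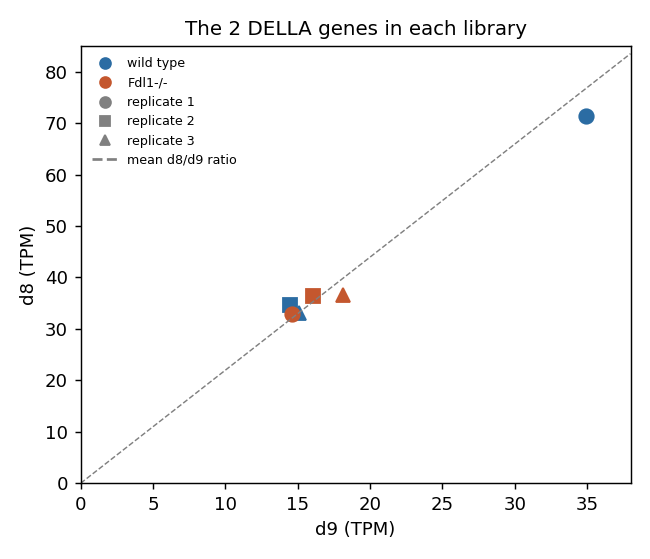
Level of d8 against d9 in TPM, one point per library, colour by genotype and symbol by replicate, with a dashed line at the mean ratio of d8 to d9. The points of 5 libraries lie together at 14.44 to 18.14 TPM of d9, and wild-type replicate 1 lies far out near the same line.

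Expected counts were whole within 0.005 in 0 of 6 libraries for d8 and for d9, so some of their reads were divided with other sequences, and the tables do not show which. Where reads are divided between d8 and d9 themselves, their summed count does not depend on the division. Summed over both genes, the level was 106.3, 49.2 and 48.2 TPM in wild-type replicates 1, 2 and 3. In Fdl1-/- replicates 1, 2 and 3 the sum was 47.5, 52.6 and 54.7 TPM. The groups overlapped in TPM, with the mutant sums between the highest and the lowest wild-type sum except that of Fdl1-/- replicate 1, the lowest of all. In CPM all mutant sums lay inside the wild-type range. There the lowest was wild-type replicate 3 at 63.3 CPM, just under Fdl1-/- replicate 1 at 64.3 CPM. The log2 ratio of the summed CPM was -0.33, with a two-sided exact permutation p of 0.9, and 0.090 without wild-type replicate 1.

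The proportion of the DELLA genes hardly varied. The gene d8 made up 67.1%, 70.6% and 68.7% of the summed TPM in wild-type replicates 1, 2 and 3, and 69.3%, 69.4% and 66.9% in Fdl1-/- replicates 1, 2 and 3. Wild type averaged 68.8% ± 1.75 and the mutant 68.5% ± 1.43 (SD, n = 3), with a two-sided exact permutation p of 0.9. Wild-type replicate 1, where both genes were high, had a share within the range of the other libraries, and without it the mutant share differed by -1.17 percentage points. Across the 6 libraries log-CPM of d8 and d9 had a Pearson correlation of 0.989, and without wild-type replicate 1 it was 0.712 over 5 libraries. The genes share the libraries and may share reads, so these values are a description only.

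Outside the 4 genes, the likeness of patterns was measured by the Pearson correlation of log-CPM over the 6 libraries. The gene nearest to d1 was Zm00001d051020, at r = 0.995, with wild type at 36.7 ± 5.24 CPM and the mutant at 23.7 ± 1.21 CPM (SD, n = 3) and an adjusted p of 0.0593 in edgeR. The genes nearest to d3, d8 and d9 were Zm00001d049793, Zm00001d019045 and Zm00001d040356, at r = 0.993, 0.999 and 0.999. The first had low levels, 0.473 ± 0.320 CPM in wild type and 0.368 ± 0.181 CPM in the mutant (SD, n = 3). For the nearest genes of d8 and d9, wild type had 130 ± 118 and 6.28 ± 7.13 CPM (SD, n = 3). The mutant had 69.2 ± 6.97 and 2.65 ± 0.569 CPM (SD, n = 3). A correlation above 0.95 was shared with 323 genes for d1, 21 for d3, 760 for d8 and 886 for d9. All 760 of d8, all 886 of d9 and all 21 of d3 had their highest value in wild-type replicate 1, as had 266 of the 323 of d1. Each of the 4 genes had its own highest CPM in that library, so this outcome follows largely from how the similar genes were picked.

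The genes lie apart in the gene order of the tables, at gene numbers 5628 for d8, 17827 for d1, 22864 for d9 and 39768 for d3. Within 20 gene numbers of d1, 1 of 27 tested genes was called by edgeR, and it was lower in the mutant. The same windows held 0 of 30 called genes for d3, 1 of 22 for d8, higher in the mutant, and 0 of 22 for d9. Over all tested genes 2.68% were called, 0.996% lower and 1.68% higher in the mutant, so 0 or 1 call in a window is near that share.

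**Figure D5:**
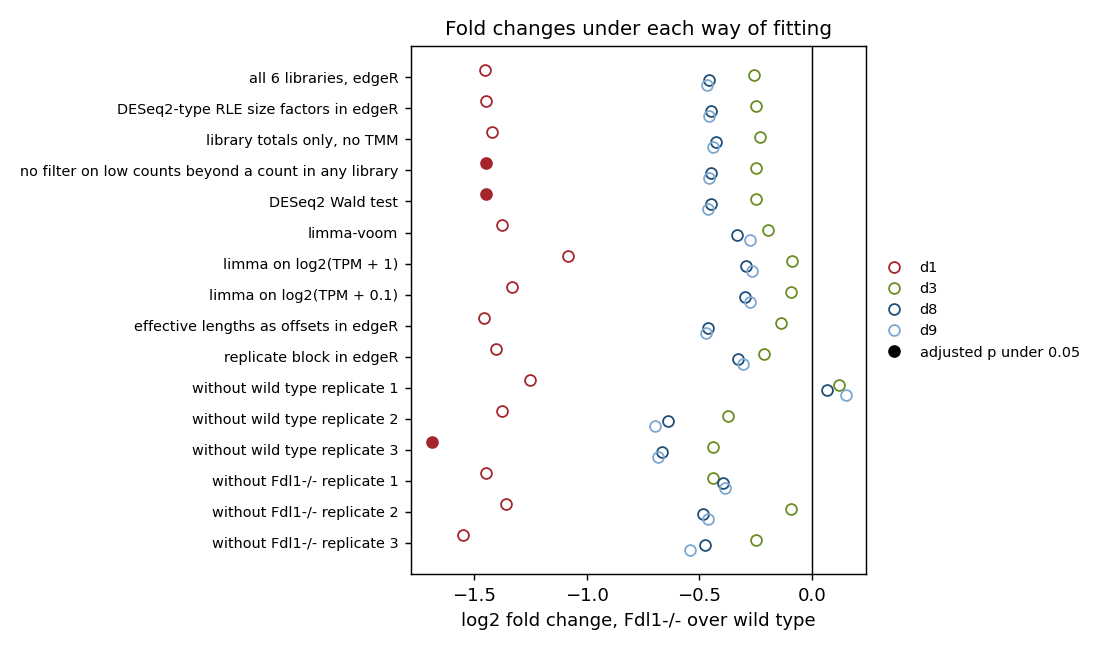
Log2 fold change, Fdl1-/- over wild type, of the 4 genes under each way of fitting and with each library left out, filled where the adjusted p is under 0.05. The value of d1 stays between -1.69 and -1.08 and is filled in 3 alternatives, and those of d3, d8 and d9 pass above 0 only without wild-type replicate 1.

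Other gibberellin genes, such as the cyclases, the GA 20-oxidases, the GA 2-oxidases that inactivate the hormone and the GID1 receptor, were not analysed here. A list of 29 symbols was set for them, and 0 could be paired with an ID of the files.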

How the data were processed

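Per the labels' protocols, a PureLink kit served for RNA and a stranded TruSeq mRNA kit for libraries. Bowtie2, RSEM, DESeq2 and limma, without versions or roles, and the build B73 RefGen_v4 are named in the submitters' processing notes. Per the file headers, the authors deposited RSEM gene tables with expected counts, which divide reads shared between genes, TPM, FPKM and transcript lengths. The deposited FPKM values served only as an alternative for the DELLA share.

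Counts were rounded to whole numbers for edgeR 4.0.16 under R 4.3.3 (filterByExpr with a minimum count of 10 and total of 15, TMM scaling, quasi-likelihood test, two-sided, Benjamini-Hochberg threshold 0.05). All 6 libraries entered, with genotype as the only term. CPM are TMM-scaled, with a prior count of 2 for log-CPM. A standard error is the absolute log2 fold change over the root of F. Single ratios were tested by exact permutation over libraries. A floor of 3 counts was 0.084 to 0.114 CPM per library. Alternatives were limma 3.58.1 (voom, and TPM with pseudocounts 1 and 0.1), DESeq2 1.42.0, other scalings, no low-count filter, offsets from effective lengths, each library left out and a replicate block.

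Named genes are the 4 members, the FDL1 locus and, for each member, the gene with the most similar pattern. Members and lists were chosen with earlier results of these data known. A symbol table for assembly NAM-5.0 matched 0 of 43789 IDs beginning Zm00001d.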

Additional observations from a re-analysis of the deposited data

How the results depend on the processing

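The log2 fold change of d1 was below 0 in all 15 alternatives, from -1.69 to -1.08, and it passed the threshold in 3: DESeq2 (-1.45), no low-count filter (-1.45) and without wild-type replicate 3. Leaving out 1 library gave -1.69 to -1.25 for d1, -0.44 to 0.12 for d3, -0.67 to 0.064 for d8 and -0.70 to 0.15 for d9, the highest value of d3, d8 and d9 being that without wild-type replicate 1. It gave -0.56 to 0.090 for the summed DELLA log2 ratio, -118 to 15.05 nt for the d3 length difference (also above 0 only without wild-type replicate 1) and -1.39 to -1.09 for the d1 to d3 log2 ratio. The difference in d8 share, -0.32 percentage points, ran from -1.17 to 0.59 and was above 0 without wild-type replicate 2 (0.59) or Fdl1-/- replicate 3 (0.51). Over all genes, 699 were called, 260 of them lower. DESeq2 called 1997 (931 lower), and leaving out 1 library gave 128 to 837 (19 to 309 lower), with 149, 128, 184 and 193 without wild-type replicate 2 and Fdl1-/- replicates 1, 2 and 3. The causes were not tested. The counts of lower genes and the leave-one-out values of the d3 length, though not that comparison itself, were chosen after seeing the data. Other descriptions were not part of the plan either. These include the comparison of wild-type replicate 1 with its group, the order of levels and the check for whole counts. They also include the windows of gene numbers and the library in which similar genes were highest. A replicate block, tried because the groups share replicate numbers, left 122 called genes (17 lower) and gave d1 -1.40 with an adjusted p of 0.186 in edgeR. Same-numbered libraries had correlations of deviations of -0.22, 0.13 and -0.18, which gives no sign of pairing by replicate number. Differently numbered libraries ran from -0.18 to 0.27. The highest were wild-type replicate 1 with Fdl1-/- replicate 3 (0.27) and wild-type replicate 3 with Fdl1-/- replicate 1 (0.22). Pairing under other numbers was not tested. With 3 libraries a group, exact permutation tests cannot go below 0.1.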
